A study of Homo sapiens with 10 samples.

Results

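The genes described here are 10 markers by which mammary stem, progenitor, basal, luminal and stromal cells are sorted, namely CD24, CD44, EPCAM, PROCR, THY1, MME, NT5E, ENG, ALDH1A1 and ALDH1A3. They were chosen by gene symbol, and the table of the untreated libraries lists 10 of them among its 26256 rows, of which 9 had enough counts for a test. The table of the Nutlin-3a experiment lists 9 of them by symbol among its 55736 rows, and 7 had enough counts for a test. RNA-seq was made of parental MCF10A cells, a nontransformed human breast epithelial line, and of G12V cells, which are MCF10A cells transduced with an HRas V12 vector (genotype H-RAS Gv12) together with a GFP vector and selected with hygromycin, with 2 replicates each. Nothing in the methods says that G12V cells are a single clone. In a separate experiment parental MCF10A cells received 10 µM Nutlin-3a, which frees p53 from MDM2, or the vehicle DMSO for 4 h, with 3 replicates each. The labels call the replicates biological.

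Cell surface antigens divide the cells of the mammary gland into compartments. EpCAM and CD24 are high on luminal cells, CD10 (the product of MME) marks myoepithelial cells, and CD90 (THY1), CD73 (NT5E) and endoglin (ENG) are used for basal, stromal and mesenchymal cells. Breast cancer cells with much CD44 and little CD24, or with high aldehyde dehydrogenase activity, have been described as stem-like, and PROCR encodes a receptor by which multipotent mammary cells have been isolated. Aldehyde dehydrogenases of the 1A family make retinoic acid from retinaldehyde.

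The libraries held from 21538593 to 23683975 counts in the untreated experiment and from 15453226 to 17378734 in the Nutlin-3a experiment. Levels are given as CPM, the counts of a gene per 1000000 counts of the library size after normalization, and a gene was called higher or lower when its adjusted p in edgeR's quasi-likelihood test was under 0.05 and its absolute log2 fold change above 0.5. HRAS, the gene introduced into G12V cells, had 72.6 and 65.9 CPM in the MCF10A libraries and 631 and 515 CPM in the G12V libraries. The summed level of 8 basal and myoepithelial markers ranged from 6084 to 7632 CPM in MCF10A and from 956 to 1249 CPM in G12V cells, with KRT14 at 3 or fewer counts in each G12V library and CNN1 in each library of both groups. Not all of that list was lower, since mean levels in MCF10A and G12V cells were 14.7 and 14.5 CPM for ACTA2, 0.987 and 0.981 CPM for OXTR and 2.63 and 7.32 CPM for MYLK, none of them called. The summed level of 9 luminal markers ranged from 3337 to 4375 CPM and from 2489 to 2586 CPM, with ELF5 and PGR at 3 or fewer counts in each library. Most of that sum was KRT7, with means of 3296 and 2096 CPM in MCF10A and G12V cells. KRT18 (334 and 204 CPM) and GATA3 (26.0 and 9.45 CPM) were also lower in G12V cells. KRT8 (195 and 222 CPM) and FOXA1 (4.34 and 6.18 CPM) had higher means there. Of 6 fibroblast markers COL1A2 and COL3A1 had 3 or fewer counts in each of these 4 libraries, with a summed level of the list of 37.4 to 64.7 CPM in MCF10A and 53.4 to 59.9 CPM in G12V cells. The immune markers PTPRC and CD3E also had 3 or fewer counts in each of them, while CD14 had means of 27.5 CPM in MCF10A and 30.7 CPM in G12V cells. Summed levels of 5 endothelial markers ranged from 8.68 to 33.0 CPM and from 9.92 to 15.3 CPM, and of 3 adipocyte markers from 0.749 to 0.818 CPM and from 1.11 to 1.29 CPM. The part of these marker levels in the results below was not tested. In RNA of a whole culture, fewer cells with a transcript and less of it per cell cannot be told apart.

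Between MCF10A and G12V cells, 5 of the 9 tested members were called, 2 lower and 3 higher in G12V cells. CD24 and EPCAM, markers of the luminal compartment, were lower, whereas MME, ENG and ALDH1A1 were higher. Among all 14376 tested genes 11% were called, 5.01% higher and 5.95% lower. ALDH1A1 passed the filter on low counts only through the G12V libraries. No library of one group overlapped those of the other for the other 8 tested members, a separation also seen in 54.8% of all tested genes. CD44, PROCR, NT5E and ALDH1A3 had separate groups but were not called, and THY1 was not tested. Without MCF10A replicate 1 no gene of the table was called, members included, with 5 members at an unadjusted p under 0.05 and a smallest edgeR adjusted p of 0.0502, while without any other single library 4 to 7 members were called.

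**Figure D1:**
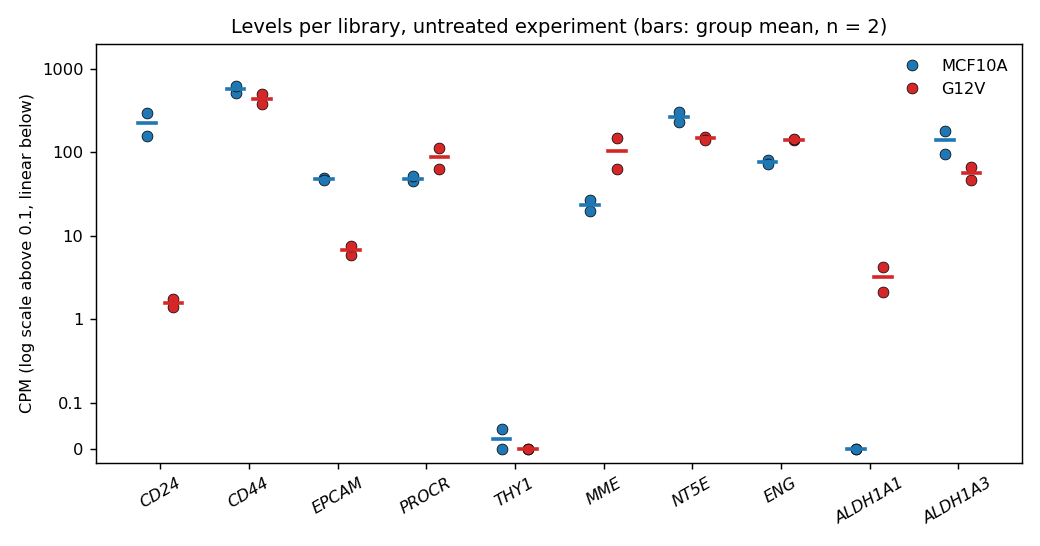
Level in CPM of the 10 markers in each of the 2 MCF10A and 2 G12V libraries, on a log axis above 0.1 CPM and a linear axis below, where points are libraries and bars are means of 2 libraries. CD24 falls from 226 to 1.57 CPM, ALDH1A1 has no counts in MCF10A, and THY1 lies at or near 0 in both groups.

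CD24 encodes a small, heavily glycosylated protein that is anchored in the membrane by lipid. It had 6470 and 3608 counts in the MCF10A libraries and 41 and 31 in the G12V libraries. As levels these are 294 and 159 CPM against 1.75 and 1.38 CPM. Both G12V libraries were thus far below both MCF10A libraries, although the latter differed from each other by more than the G12V libraries did. Its level fell from a mean of 226 ± 95.6 CPM (SD) to one of 1.57 ± 0.262 CPM (SD, n = 2 each). On the log2 scale G12V minus MCF10A was -7.17 (SE 0.42, 95% interval -8.21 to -6.13, edgeR adjusted p = 0.000894), larger in size than those of 99.2% of the tested genes.

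The row named CD24 lies at chrY:21152526-21438350 on the minus strand of hg19, whereas the RefSeq promoters of CD24 lie on chromosome 6 of GRCh38.p14. Of 3 CD24 promoter windows of 300 bases, 2 matched GRCh37 (the assembly of hg19) only on chromosome Y, over 300 bases with 98.3% identity and over 145 bases with 97.9% identity, and 1 matched nowhere in it. The 10 windows of the 7 other members found in the promoter table matched their own loci in full. The 95 bases before the start of a CD24 transcript (chr6:106975628-106975722, GRCh38.p14, minus strand) and the aligned bases of GRCh37 (chrY:21154963-21155057, minus strand) are shown because they show which locus the CD24 row stands for, with the 2 differing bases in capitals.
CD24 promoter: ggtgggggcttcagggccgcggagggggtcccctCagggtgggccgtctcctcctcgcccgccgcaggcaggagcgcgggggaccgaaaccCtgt
Chromosome Y copy: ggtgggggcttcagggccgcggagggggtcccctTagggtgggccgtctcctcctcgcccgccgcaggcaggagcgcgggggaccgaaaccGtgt
Reads of CD24 and of its copy on chromosome Y cannot be told apart in these counts, and the values of CD24 above are those of the row that bears its name. The only other row that overlaps it, TTTY14 on the same strand, had 0 counts over the untreated libraries. Whether the copy on chromosome Y is transcribed was not tested.

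CD44 encodes the hyaluronan receptor and lies at chr11:35160417-35253949 (hg19, plus strand). Its level was 518 and 633 CPM in the MCF10A libraries and 377 and 508 CPM in the G12V libraries. The highest G12V library lay just under the lowest MCF10A library. The log2 fold change of -0.38 (SE 0.25, 95% interval -0.99 to 0.24) missed the call (edgeR adjusted p = 0.425). The ratio of CD44 to CD24 counts within a library was 1.76 and 3.98 in the MCF10A libraries but 215 and 367 in the G12V libraries. The ratio uses the CD24 counts given above and adds no separate evidence on CD24.

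EPCAM, at chr2:47596287-47614167 (hg19, plus strand), encodes an adhesion molecule of epithelial cells. It had 49.2 and 47.1 CPM in the MCF10A libraries and 5.81 and 7.63 CPM in the G12V libraries. The replicates of each group lay close together, and the groups were well apart. On the log2 scale G12V minus MCF10A was -2.84 (SE 0.24, 95% interval -3.44 to -2.25, edgeR adjusted p = 0.00284), a level 7.16-fold lower in G12V cells. There were 10.5 and 13.4 CD44 counts for each EPCAM count in MCF10A, and 64.9 and 66.6 in G12V cells.

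PROCR encodes the endothelial protein C receptor and lies at chr20:33759740-33765165 (hg19, plus strand). Its level was 44.9 and 52.2 CPM in the MCF10A libraries and 63.6 and 114 CPM in the G12V libraries. Both G12V libraries were higher, and replicate 2 of them was well above replicate 1. The log2 fold change of 0.87 (SE 0.30, 95% interval 0.13 to 1.61) missed the call (edgeR adjusted p = 0.135). Without G12V replicate 1 it was 1.23, and without G12V replicate 2 it was 0.39.

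MME, at chr3:154797436-154901518 (hg19, plus strand), encodes the metallopeptidase CD10. It had 19.7 and 27.0 CPM in the MCF10A libraries and 63.8 and 147 CPM in the G12V libraries. Every G12V library was above both MCF10A libraries, with a wide spread among the G12V libraries. Its level rose from a mean of 23.3 ± 5.11 CPM (SD) to one of 105 ± 59.0 CPM (SD, n = 2 each), which is a log2 change of 2.18 (SE 0.42, 95% interval 1.14 to 3.21, edgeR adjusted p = 0.0269). Without G12V replicate 2 the log2 fold change was 1.45, and without G12V replicate 1 it was 2.65. Without MCF10A replicate 1 it was 1.98, and without MCF10A replicate 2 it was 2.42. Each such fit takes the spread between replicates from the other group alone.

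ENG encodes endoglin, a coreceptor for TGF-β and bone morphogenetic proteins, and lies at chr9:130577291-130617052 (hg19, minus strand). It had 81.5 and 72.5 CPM in the MCF10A libraries and 140 and 146 CPM in the G12V libraries. Its replicates were the closest of the called members in the G12V group. On the log2 scale G12V minus MCF10A was 0.89 (SE 0.17, 95% interval 0.47 to 1.31, edgeR adjusted p = 0.0272). The call was lost without MCF10A replicate 1 (adjusted p = 0.149), MCF10A replicate 2 (adjusted p = 0.151) or G12V replicate 2 (adjusted p = 0.0697), while the log2 fold change stayed between 0.81 and 1.00.

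NT5E encodes the ecto-5'-nucleotidase CD73, which makes adenosine from AMP outside the cell, and lies at chr6:86159302-86205509 (hg19, plus strand). It had 304 and 229 CPM in the MCF10A libraries and 155 and 141 CPM in the G12V libraries. Both G12V libraries were below both MCF10A libraries. The log2 fold change of -0.84 (SE 0.22, 95% interval -1.38 to -0.31) missed the call (edgeR adjusted p = 0.0631), whereas it was called by DESeq2 with an adjusted p of 0.0114. THY1, at chr11:119288655-119294246 (hg19, minus strand), encodes the surface glycoprotein CD90 and had 0 and 1 counts in the MCF10A libraries and 0 in both G12V libraries. THY1 was at most a trace at this depth, and 3 counts would correspond to 0.128 to 0.136 CPM in these libraries. The THY1 row overlaps USP2-AS1 on the opposite strand, a gene with 113 counts over these libraries. Reads of the shared stretch cannot be told apart without strand.

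The values of the 2 aldehyde dehydrogenases lay in opposite directions, higher in G12V cells for ALDH1A1 and lower for ALDH1A3. ALDH1A1, at chr9:75515578-75568233 (hg19, minus strand), had 0 counts in both MCF10A libraries and 49 and 96 counts in the G12V libraries. These are 2.1 and 4.28 CPM in G12V cells, at least 23.4-fold higher than the 3 counts per library set as the floor, with an edgeR adjusted p of 0.0102. ALDH1A3, at chr15:101419897-101456830 (hg19, plus strand), had 182 and 96.9 CPM in the MCF10A libraries and 66.1 and 46.7 CPM in the G12V libraries. The G12V libraries were lower, and the MCF10A libraries differed from each other by more than the gap between the groups. Parental cells given DMSO in the separate experiment had 44.3, 103 and 123 CPM, a range that holds both G12V values. That experiment was counted with another annotation, and the difference was not tested. The log2 fold change of ALDH1A3 in G12V cells, -1.31 (SE 0.35, 95% interval -2.15 to -0.46), missed the call (edgeR adjusted p = 0.0678). DESeq2 called it with an adjusted p of 0.0043, and edgeR's quasi-likelihood test did so without MCF10A replicate 2 (adjusted p = 0.00295) or without G12V replicate 1 (adjusted p = 0.0131).

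The 250 bases before the RefSeq start of each of these 2 genes are shown because the genes encode related enzymes and their values lay in opposite directions. They come from RefSeq on GRCh38.p14, at chr9:72953054-72953303 (minus strand) for ALDH1A1 and at chr15:100879581-100879830 (plus strand) for ALDH1A3. These starts are not those of the counted rows. In GRCh37 the ALDH1A1 window (chr9:75567920-75568219) lies within its row, and that of ALDH1A3 (chr15:101419786-101420085) overlaps the start of its row. Capitals mark the letters of 4 motifs searched on both strands, the CCAAT, TATA and GC boxes and the AP-1 motif, where neighbouring GC boxes can share bases.
ALDH1A1: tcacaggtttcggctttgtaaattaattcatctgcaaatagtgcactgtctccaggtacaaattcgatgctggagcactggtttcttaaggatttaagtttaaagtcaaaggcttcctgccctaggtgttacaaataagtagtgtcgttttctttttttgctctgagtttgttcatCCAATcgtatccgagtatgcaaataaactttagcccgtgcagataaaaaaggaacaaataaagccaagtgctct
ALDH1A3: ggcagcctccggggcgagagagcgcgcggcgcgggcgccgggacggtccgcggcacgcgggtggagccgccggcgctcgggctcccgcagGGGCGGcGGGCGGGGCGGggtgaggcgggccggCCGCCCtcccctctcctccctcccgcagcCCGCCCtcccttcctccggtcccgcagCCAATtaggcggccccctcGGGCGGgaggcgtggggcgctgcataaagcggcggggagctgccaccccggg
The ALDH1A1 stretch has 6 CpG and a GC content of 38.4%, and 38.1% of 35097 promoter stretches of this length have fewer CpG. That of ALDH1A3 has 38 CpG and a GC content of 82.4%, and 96.7% of them have fewer. The CCAAT box begins 74 bases before the start of ALDH1A1 and 71 bases before that of ALDH1A3, and 32.0% of all promoter stretches hold it. ALDH1A3 holds 6 GC boxes, searched as the letters GGGCGG, and ALDH1A1 none, where 42.6% of all stretches hold at least 1. The TATA box, searched as TATAAA and held by 10.7% of all stretches, is found in neither. The AP-1 motif, searched as TGANTCA and held by 6.57% of all stretches, is found in neither, nor before the start in any of the 13 windows of the 8 members in the table. These matches describe the letters of the stretches only.

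**Figure D2:**
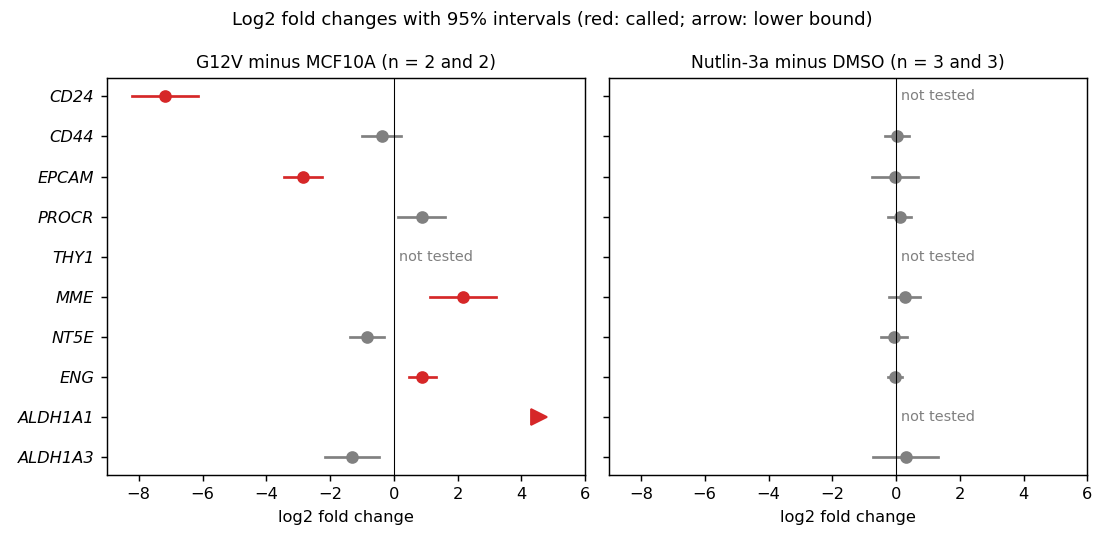
Log2 fold change of the 10 markers between G12V and MCF10A cells (left, 2 libraries each) and between Nutlin-3a and DMSO (right, 3 libraries each), where dots are estimates, lines are 95% intervals, red marks a call and the arrow is the lower bound of ALDH1A1. On the left the intervals of CD24, EPCAM, MME and ENG, which were called, lie away from 0. Those of PROCR, NT5E and ALDH1A3, not called after adjustment, do so too, and that of CD44 includes it. On the right every interval, from the fit without the replicate number as a block, includes 0. With the block those of MME (0.05 to 0.53) and ALDH1A3 (0.10 to 0.47) do not, though neither was called.

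Divided by the exon length of each gene, the levels can be ordered between genes, which leaves out CD24 because the annotation used for GRCh37 holds no gene of that name. The lengths join all exons of a gene in GENCODE and may differ from the exons in which reads were counted. Orders of genes with close levels are therefore uncertain. In MCF10A cells NT5E had 58.8 ± 11.8 CPM per kb (SD, n = 2) and CD44 had 57.6 ± 8.10 CPM per kb (SD, n = 2), with overlapping ranges. PROCR with 28.6, ALDH1A3 with 26.2, ENG with 20.0 and EPCAM with 19.8 CPM per kb followed, and each overlapped its neighbour in this order. MME lay apart from them at 2.37 CPM per kb, and THY1 and ALDH1A1 were at or near 0. In G12V cells PROCR with 52.3, CD44 with 44.3 and ENG with 37.2 CPM per kb were highest, where PROCR overlapped CD44 and CD44 overlapped ENG. NT5E with 32.7 CPM per kb lay below ENG without overlap. MME with 10.7 and ALDH1A3 with 10.6 CPM per kb overlapped, and EPCAM with 2.77 and ALDH1A1 with 1.1 CPM per kb lay below them. The levels per length of PROCR and ENG were thus above that of NT5E in G12V cells and below it in MCF10A cells.

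To place the markers among genes of the same roles, 134 further genes in 10 lists were examined, of which 99 were tested. Of these 8 were called higher and 23 lower in G12V cells, where 5.01% of all tested genes were called higher and 5.95% lower. The counts of calls in each list below are to be read beside these shares. The median log2 fold change of the 99 genes was -0.42, where that of all tested genes was -0.0011. Of the 10 list medians, 7 were negative and 3 positive. Setting the 3 genes with hardly any counts in one group at their lower bound left these medians as they were. Some called genes, among them ACVRL1, TNFAIP6, ESRP1, TFPI2, ALDH1L1 and NGFR, passed the filter on low counts only through the group where they were higher. Their calls, which are part of these counts, carry that limit, as does that of ALDH1A1.

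Among 12 tested other surface markers used to sort breast epithelial cells, 7 were called lower and 0 higher, with a median of -1.52. CDH3, which encodes P-cadherin of basal cells, fell from a mean of 366 ± 46.3 CPM (SD) to one of 4.30 ± 2.69 CPM (SD, n = 2 each), which is a log2 change of -6.41 (SE 0.50). The log2 fold change of NGFR, the nerve growth factor receptor, was -5.27 (SE 1.16), and that of MUC1, a luminal mucin, was -3.51 (SE 0.36). The 3 had edgeR adjusted p of 0.00197, 0.0404 and 0.00424. Basal as well as luminal markers were thus among the genes that fell. NGFR differed widely between the MCF10A libraries, with 71 and 476 counts.

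Of 6 tested stromal and mesenchymal surface markers 1 was called higher and 1 lower, with a median of 0.44. MCAM, an adhesion molecule of pericytes, had 596 and 411 counts in MCF10A and 3681 and 3611 counts in G12V cells. On the log2 scale it rose by 2.82 (SE 0.25, edgeR adjusted p = 0.00304). FAP, a serine protease of activated fibroblasts, had 1197 and 988 counts in MCF10A and 25 and 26 counts in G12V cells. It fell by 5.45 on the log2 scale (SE 0.28, edgeR adjusted p = 0.000788). The called genes of the stromal list thus went both ways.

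The partners of EPCAM numbered 11, of which 2 were called lower and 0 higher, with a median of -0.62. CLDN7, the claudin that binds EpCAM, fell from a mean of 97.4 ± 10.5 CPM (SD) to one of 9.83 ± 1.56 CPM (SD, n = 2 each). The protease inhibitor gene SPINT2 fell from a mean of 458 ± 86.8 CPM (SD) to one of 74.8 ± 31.1 CPM (SD, n = 2 each). Their log2 fold changes were -3.31 (SE 0.22) and -2.61 (SE 0.35), with edgeR adjusted p of 0.00128 and 0.00872. Around CD44, 2 of 9 tested hyaluronan and splicing genes were called higher and 1 lower. ESRP1, the epithelial splicing regulator whose targets include CD44, fell from a mean of 93.1 ± 30.4 CPM (SD) to one of 0.220 ± 0.130 CPM (SD, n = 2 each). TNFAIP6, which encodes a hyaluronan-binding protein, had 1 count in each MCF10A library and 91 and 557 counts in G12V cells, at least 105-fold higher. HYAL1, a hyaluronidase gene, rose with a log2 fold change of 2.64 (SE 0.41, edgeR adjusted p = 0.0138). Counts per gene do not separate the splice forms of CD44.

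In the protein C and thrombin list around PROCR, 2 of 7 tested genes were called higher and 3 lower, with a median of -1.34. THBD, which encodes the thrombin receptor thrombomodulin that activates protein C, rose from a mean of 38.3 ± 15.5 CPM (SD) to one of 209 ± 71.7 CPM (SD, n = 2 each). PROS1, the gene of the cofactor protein S, rose with a log2 fold change of 1.60 (SE 0.32, edgeR adjusted p = 0.0303). The thrombin receptor gene F2R and the related F2RL1 fell by 2.57 and 2.37 on the log2 scale. TFPI2, an inhibitor of serine proteases, had 78 and 39 counts in MCF10A and none in either G12V library, at least 19.7-fold less.

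Of 13 tested genes of the endoglin and BMP receptor pathway, 1 was called higher and 2 lower, with a median of -0.54. The receptor partner gene ACVRL1 was low in both groups, with 6 and 3 counts in MCF10A and 26 and 42 counts in G12V cells, and was called higher with an edgeR adjusted p of 0.0308. ID3, a target of BMP signalling, fell from a mean of 55.4 ± 13.4 CPM (SD) to one of 9.31 ± 3.89 CPM (SD, n = 2 each). MMP14, which encodes a protease that sheds endoglin, fell by 1.82 on the log2 scale. Of 9 tested genes of the extracellular adenosine pathway, the receptor gene ADORA1 was called higher, with 62 and 85 counts against 237 and 219, and ENTPD2, which encodes an enzyme that degrades ATP, was called lower, with 661 and 941 counts against 91 and 97. The median of the adenosine list was 0.20. None of 4 tested metallopeptidases related to MME was called, with a median of 0.36. In edgeR's quasi-likelihood test 2 of them had an unadjusted p under 0.05, as had 3676 of all 14376 tested genes.

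Of 14 other tested aldehyde dehydrogenases 1 was called higher and 1 lower, with a median of -0.25. ALDH5A1, the gene of a mitochondrial dehydrogenase, rose with a log2 fold change of 1.25 (SE 0.28, edgeR adjusted p = 0.0442). ALDH1L1, of folate metabolism, had 33 and 53 counts in MCF10A and 0 and 1 in G12V cells, and was at least 14.3-fold lower. Retinoid genes, which handle the substrate and product of ALDH1A1 and ALDH1A3, were called lower in 5 of 14 tested cases and higher in 0, with a median of -0.46. LRAT, which stores retinol as esters, fell from a mean of 11.9 ± 2.68 CPM (SD) to one of 1.36 ± 0.658 CPM (SD, n = 2 each). The log2 fold change of the retinol dehydrogenase gene DHRS9 was -2.78 (SE 0.59), and that of the retinol transporter gene STRA6 was -2.24 (SE 0.52).

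**Figure D3:**
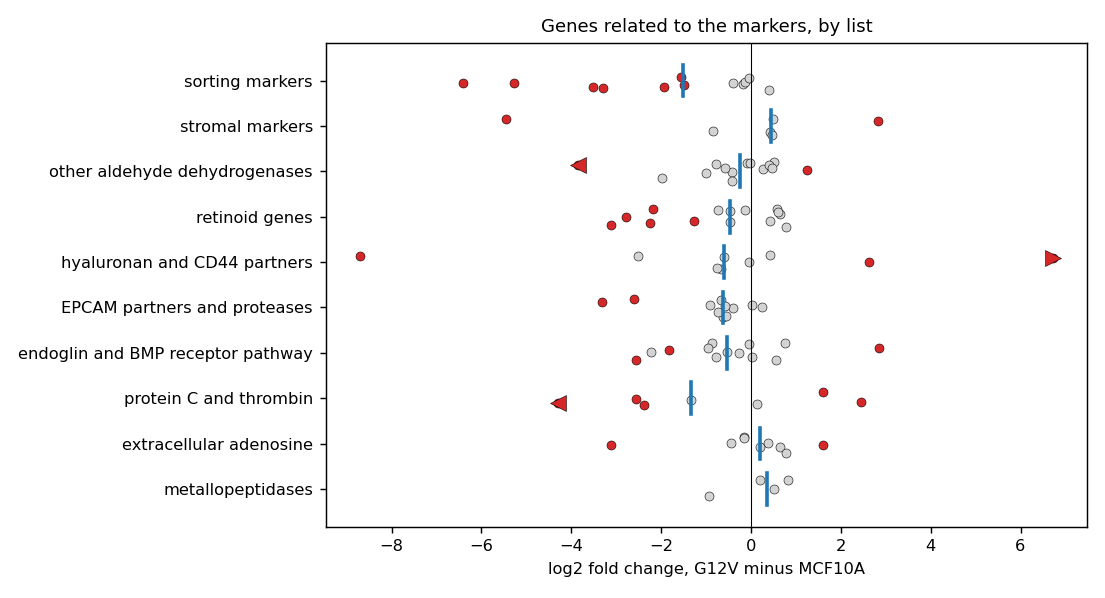
Log2 fold change between G12V and MCF10A cells of 99 tested genes in 10 lists, where each point is a gene, red marks a call, triangles are the lower bounds of genes with hardly any counts in one group, and blue bars are list medians. The 12 sorting markers have the lowest median, -1.52, and 7 of them were called lower.

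The genes whose levels over the 10 libraries were most like those of a called member were sought among 12073 genes tested in both tables, by the Euclidean distance of log2(CPM + 0.5) from the mean of the control group. For EPCAM these were MAL2, at a distance of 0.572, and CSTA, at 0.720. For MME they were PTP4A3, at 0.709, and ASIC1, at 0.727, and for ENG they were WWTR1, at 0.207, and PRTG, at 0.269. CD24 and ALDH1A1 were not tested in both tables.

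The Nutlin-3a experiment asks whether activation of p53 over 4 h changes the same markers in parental cells. The p53 targets CDKN1A and MDM2 were called higher, with log2 fold changes of 2.16 (SE 0.13) and 2.54 (SE 0.18). Of the 7 tested members 0 were called, where 0.17% of 13529 tested genes were called by edgeR's quasi-likelihood test. With the replicate number as a block, which called 1.22% of the tested genes, 0 members were called too. In that edgeR fit 2 of the 7, MME and ALDH1A3, had an unadjusted p under 0.05, as had 1584 of all 13529 tested genes. DESeq2 also called 0, and without the block 0 members had an unadjusted p under 0.05 in either tool, or 1 in edgeR's test when low counts were not filtered out. No member had separate treatment groups, which 8.07% of all tested genes had.

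Among the epithelial and CD44 markers, EPCAM had 91.3, 43.4 and 75.9 CPM with DMSO and 92.5, 43.6 and 70.9 CPM with Nutlin-3a, in the order of the replicate numbers. CD44 had 590, 822 and 624 CPM with DMSO and 665, 814 and 606 CPM with Nutlin-3a. For EPCAM the libraries of 1 number lay close together under both treatments, and the numbers differed by up to 2.1-fold with DMSO. The log2 fold changes were -0.03 (SE 0.32, 95% interval -0.75 to 0.70) for EPCAM and 0.03 (SE 0.17, 95% interval -0.35 to 0.42) for CD44. With the block the intervals narrowed to between -0.20 and 0.15 for EPCAM and between -0.12 and 0.20 for CD44.

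PROCR had 59.6, 62.0 and 71.9 CPM with DMSO and 57.4, 65.7 and 86.0 CPM with Nutlin-3a. MME had 15.7, 26.8 and 26.6 CPM with DMSO and 23.5, 31.1 and 28.3 CPM with Nutlin-3a. MME was higher with Nutlin-3a in 3 of 3 pairs, by 0.29 on the log2 scale with the block (95% interval 0.05 to 0.53, edgeR adjusted p = 0.303). NT5E had 529, 490 and 405 CPM with DMSO and 545, 472 and 350 CPM with Nutlin-3a. ENG had 73.5, 76.0 and 73.6 CPM with DMSO and 76.4, 70.2 and 70.4 CPM with Nutlin-3a. ENG varied least of the 7. The 95% intervals of the log2 fold change were -0.25 to 0.17 for ENG, -0.47 to 0.35 for NT5E and -0.26 to 0.48 for PROCR. The PROCR row of this table overlaps EDEM2 on the opposite strand, a gene with 2359 counts over the 6 libraries, and reads of the shared stretch cannot be told apart without strand.

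ALDH1A3 had 44.3, 103 and 123 CPM with DMSO and 54.9, 113 and 165 CPM with Nutlin-3a. It was higher with Nutlin-3a in 3 of 3 pairs, by 0.29 on the log2 scale with the block (95% interval 0.10 to 0.47, edgeR adjusted p = 0.135), and was not called. The replicate numbers differed by far more than the treatments, up to 2.78-fold with DMSO and 3.0-fold with Nutlin-3a. ALDH1A1 had 1, 4 and 6 counts with DMSO and 2, 4 and 6 with Nutlin-3a, and THY1 had 1, 1 and 2 counts and 4, 0 and 2 counts. Both were too low for a test. The THY1 row again overlaps USP2-AS1 on the opposite strand, here with 212 counts over the libraries.

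CD24 has no row of its own name in this table, and the pseudogene CD24P4, at chrY:21154353-21154595 (hg19, minus strand) inside the span of the CD24 row of the other table, was looked at after its values were seen. It had 18.5, 12.3 and 57.6 CPM with DMSO and 16.7, 8.62 and 52.1 CPM with Nutlin-3a. Number 3 was highest under both treatments, and the numbers differed by up to 4.67-fold with DMSO. CD24P4 was lower with Nutlin-3a in 3 of 3 pairs, by 0.24 on the log2 scale with the block, but was not called (edgeR adjusted p = 0.394). Its counts cannot be set beside those of the CD24 row, which spans more sequence.

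**Figure D4:**
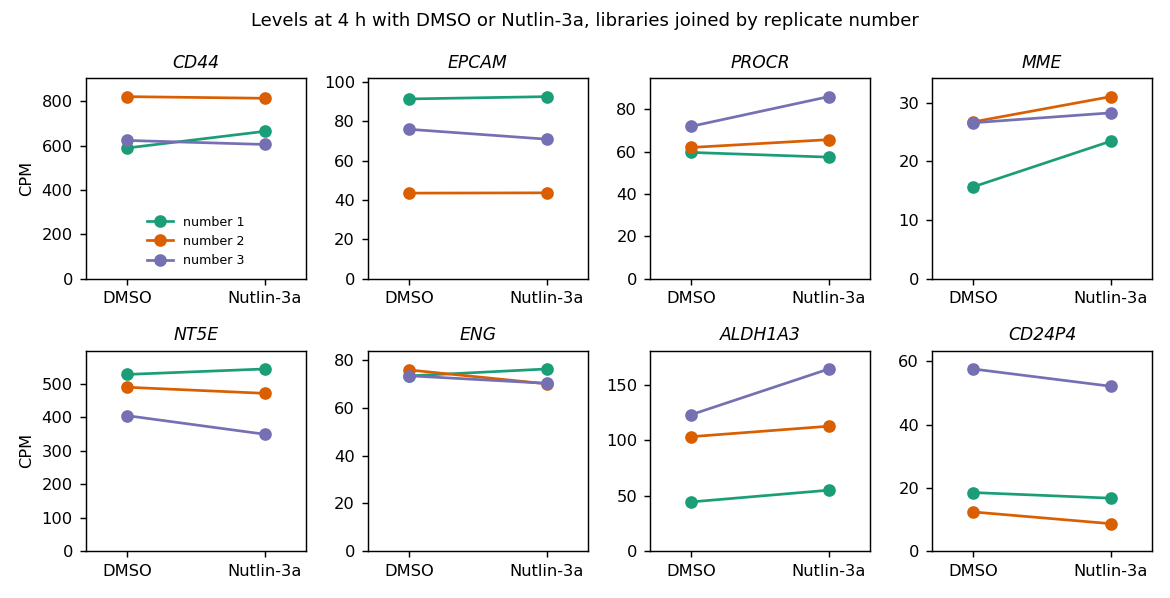
Level in CPM of the 7 tested markers and of CD24P4 in cells given DMSO or Nutlin-3a for 4 h, where lines join libraries of the same replicate number. For EPCAM, ALDH1A3 and CD24P4 the numbers are further apart than the treatments, by up to 2.1-fold, 2.78-fold and 4.67-fold with DMSO.

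In 5 of the 7 tested members the 3 replicate numbers came in the same order under both treatments, and 2 of them, EPCAM and ALDH1A3, differed by more than 2-fold among the DMSO libraries. The summed level of the 8 basal and myoepithelial markers ranged from 3091 to 5286 CPM with DMSO and from 3350 to 5716 CPM with Nutlin-3a. Of the related genes 93 were tested and 0 called, their median log2 fold change being 0.018. Of them 1 had an unadjusted p under 0.05 in edgeR's quasi-likelihood test and 2 in DESeq2, against 15 in the blocked edgeR fit, which also called 0. Over all 13529 tested genes these numbers were 463, 417 and 1584.

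**Figure D5:**
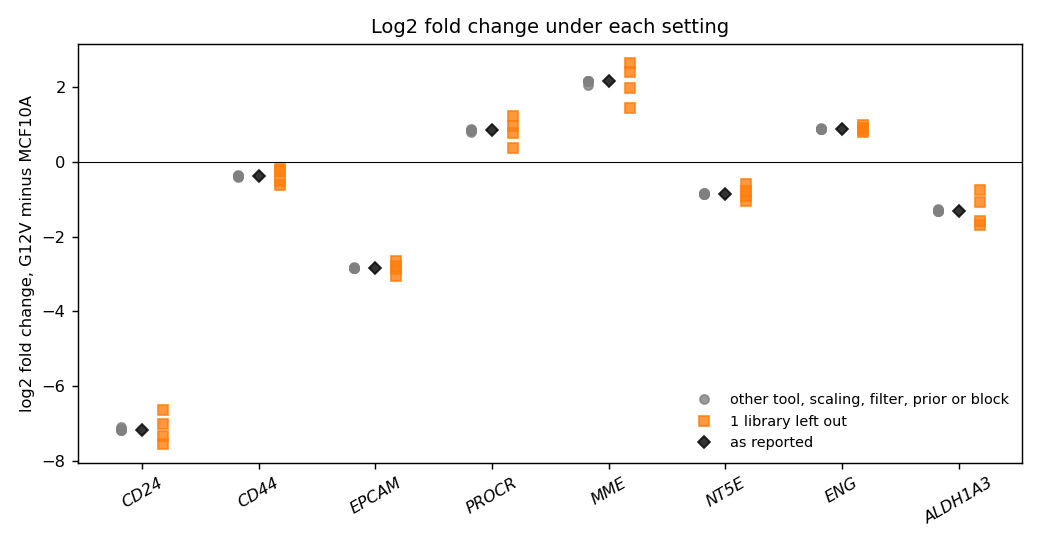
Log2 fold change between G12V and MCF10A cells of the 8 tested markers other than ALDH1A1, as reported (diamonds), under the other tools, scalings, filters, prior count and block (circles), and with 1 library left out (squares). No marker changes its direction, and without single libraries MME ranges from 1.45 to 2.65 and ALDH1A3 from -1.69 to -0.75.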

How the data were processed

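Poly(A)-selected RNA was sequenced by the authors, who used TopHat for alignment to hg19 and HTSeq for counting, and the deposited values are raw counts per gene. The 2 tables use different annotations and were fitted separately. The kit does not mark strand, and neither the strand setting nor the treatment of reads that match several places is given in the sources used here. Starts, which count from 0, were raised by 1. Totals ranged from 15453226 to 23683975 counts per library.

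After filterByExpr and TMM scaling, edgeR 4.0.16 (R 4.3.3, limma 3.58.1) compared the groups by its quasi-likelihood test, and p-values were adjusted over all tested genes (Benjamini-Hochberg). A call needed an absolute log2 fold change above 0.5 beside an adjusted p under 0.05. Unless another tool is named, adjusted p are those of this edgeR test. The prior count was 0.125, the SE is the size of the log2 fold change divided by the root of F, and a fold against a group with at most 3 counts per library is a lower bound against 3 counts. Bounds cover counting error only. Exon lengths came from GENCODE on GRCh37, and promoter windows were matched to GRCh37 by BLAST 2.17.0 (megablast, E-value up to 1e-10). These steps ran in Python 3.11.15 (pandas 2.3.3, numpy 2.4.6), and figures were drawn with matplotlib 3.10.9.

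The members and lists were chosen with earlier results of these data known. Named genes are all members, HRAS, CDKN1A and MDM2, in each list the called genes with the largest change (at most 3 higher and 3 lower), and for each called member the 2 genes most like it. Alternatives were DESeq2 1.42.0, relative log expression (RLE) factors, library totals alone, no filter, the adjusted p alone, a prior count of 2, the replicate number as a block and the omission of each library. In the Nutlin-3a experiment the deviations of same-numbered libraries from their group means correlated at 0.64 to 0.68 and those of the others at -0.50 to -0.21, so the numbers pair these libraries. On simulated counts with 200 changed genes the fits recovered 86 with 9 false calls for the untreated comparison and 156 with 9 false calls for the Nutlin-3a comparison. The summed level of the immune marker list is not reported here.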

Additional observations from a re-analysis of the deposited data

How the results depend on the processing

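In the comparison of G12V with MCF10A cells no tested member changed direction under any alternative. The count of members called was 5 with RLE factors, library totals alone, no filter and the adjusted p alone, and 7 with DESeq2, which called 4 lower. DESeq2 also called more of all 14376 tested genes, 2307 against 1575 as reported. Leaving out single libraries gave 0 to 7 members called, 0 to 4 higher and 0 to 3 lower, and 0 to 37 related genes. The 0 is that without MCF10A replicate 1, where no gene of the table was called. The smallest adjusted p in edgeR's quasi-likelihood test was then 0.0502, and 5 members, 50 related genes and 2830 of all 14883 genes tested had an unadjusted p under 0.05. CD24 (-6.63), EPCAM (-2.79), MME (1.98) and ENG (1.00) kept the direction and near the size of their log2 fold changes there. With the replicate number as a block, 8 members were called, 4 higher and 4 lower, with 61 of the related genes. Calls rose over the whole table in that fit, to 4158 of 14376 tested genes. The labels do not say what these numbers share, and with 2 pairs the deviations of same-numbered libraries correlated at 0.54, so the pairing is not established. With a prior count of 2 the fitted log2 fold change of ALDH1A1 was 5.21 in place of 9.17.

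In the Nutlin-3a experiment 0 members and 0 related genes were called under every alternative run, while the calls over all genes were 7 to 11 without single libraries, 88 with DESeq2, 99 without the filter and 165 with the block, against 23 as reported. Log2 fold changes of the members near 0 changed sign in 12 alternative values and kept it in 72. For CD44 the value was -0.000294 with library totals alone and ranged from -0.0970 to 0.195 without single libraries. Over the same omissions EPCAM ranged from -0.296 to 0.219, PROCR from -0.0699 to 0.233, NT5E from -0.209 to 0.0976 and ALDH1A3 from -0.108 to 0.620. Depth limits ALDH1A1 and THY1, which had at most 6 counts in each library of this experiment.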
